A study of Mus musculus with 4 samples.

Results

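The Dlk1-Dio3 imprinted cluster of mouse chromosome 12 was followed in nascent RNA of embryonic stem (ES) cells labelled Supt3 KO or Supt3 WT. All 118 gene rows that start between chr12:109450000-110300000 (mm10) were taken, of 54146 mouse rows in the deposited table. The cluster was selected on measured values, because its long non-coding RNAs stood out as lower in the Supt3 KO libraries. The KO and WT values of its rows are therefore given as a description, and nothing is read from the calls of a test on them. There were 2 libraries of Supt3 KO cells and 2 of Supt3 WT cells, and SUPT3 is a subunit of the SAGA coactivator complex. Both kinds of cells were grown in LIF and serum. The labels describe neither the mutant allele nor the number of clones, nor whether the replicates are separate cultures, so the spread behind each p-value may be only technical. RNA made during a pulse of 4-thiouridine was purified, fragmented and sequenced in strand-specific libraries (TT-seq), with labelled RNA of Schizosaccharomyces pombe as spike-in.

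In mouse this cluster is expressed by parent of origin. The chromosome inherited from the mother gives a string of non-coding RNAs read in one direction, Meg3, Rian and Mirg, with box C/D small nucleolar RNAs (snoRNAs) and microRNAs (miRNAs) processed from their introns and flanks. The chromosome inherited from the father gives the protein-coding genes Dlk1, a Notch-family ligand, Rtl1, a retrotransposon-derived gene needed in placenta, and Dio3, the deiodinase that inactivates thyroid hormone. A differentially methylated region between Dlk1 and Meg3 controls this choice, and in cultured mouse ES cells the maternal RNAs are known to be silenced in some lines. The counts do not tell the parental alleles apart, and in bulk RNA fewer cells that transcribe a gene and less RNA per cell cannot be told apart.

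The reading direction starts at the Meg3 promoter, whose sequence is shown because the 5 long RNAs with lower levels in KO lie in one run downstream of it. RefSeq gives it on GRCm38.p6 at chr12:109540746-109541045, plus strand, from 250 bases before the start to 50 bases from it. Capitals mark 3 motifs that were searched on both strands, the cyclic AMP response element TGACGTCA, the TATA box TATAAA, and TGCCGC, the core letters that the imprint-keeping factor ZFP57 binds when they are methylated.
Meg3 promoter: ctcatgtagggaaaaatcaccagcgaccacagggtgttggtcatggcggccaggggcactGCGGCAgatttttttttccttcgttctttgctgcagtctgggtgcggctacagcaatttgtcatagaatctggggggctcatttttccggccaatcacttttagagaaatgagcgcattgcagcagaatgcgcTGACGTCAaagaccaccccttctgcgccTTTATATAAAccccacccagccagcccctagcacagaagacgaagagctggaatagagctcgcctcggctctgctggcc
Counted from the start as 0, the response element began at -57 and TATAAA at -25, where it overlaps a match of the same motif on the other strand. TGCCGC was found on the other strand, and appears as GCGGCA at -190. Of 32851 RefSeq promoter windows of this length, 1.79% held the response element, 13.6% held TATAAA and 11.6% held TGCCGC on either strand. The window had 13 CpG dinucleotides, against a median of 7 over all windows, which put it at percentile 62.1. A second RefSeq window of Meg3, at chr12:109545148-109545447, had 1 CpG and none of the 3 motifs. A match describes letters and not binding, and DNA methylation was not measured.

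RefSeq gave mature sequences for 61 of the 67 miRNA rows, 114 in all with 104 distinct seeds. The seed, bases 2 to 8, is in capitals. The set comprises the miRNAs of the 2 most counted hairpin rows (Mir434 and Mir432), miR-376c-5p, from the most counted row with no count in KO, with its seed mate, and miR-1193-5p and miR-379-5p as a second example of a shared seed. All are on the plus strand, with hairpin rows at chr12:109594506-109594599 for Mir434, chr12:109594956-109595030 for Mir432, chr12:109722718-109722803 for Mir376c, chr12:109723458-109723539 for Mir376b, chr12:109715671-109715791 for Mir1193 and chr12:109709060-109709125 for Mir379 (mm10; sequences from RefSeq, GRCm38.p6).
miR-434-5p: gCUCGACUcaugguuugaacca
miR-434-3p: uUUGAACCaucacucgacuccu
miR-432: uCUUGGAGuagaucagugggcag
miR-376c-5p: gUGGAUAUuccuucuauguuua
miR-376b-5p: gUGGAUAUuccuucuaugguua
miR-1193-5p: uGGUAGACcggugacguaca
miR-379-5p: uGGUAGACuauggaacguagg
The pair miR-376c-5p and miR-376b-5p shares the seed UGGAUAU, and the pair miR-1193-5p and miR-379-5p shares GGUAGAC. In all, 10 seeds were held by more than 1 row.

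The snoRNAs below come from the GENCODE M21 transcripts, with a box C (TGATGA) near the 5′ end and a box D (CTGA) near the 3′ end in capitals where these letters were found. They are the most counted snoRNA row, the more counted of the 2 rows with no count in KO, and the pair that was most alike. All are on the plus strand, Gm23787 at chr12:109684962-109685034, Gm22205 at chr12:109688055-109688125, Gm23736 at chr12:109680800-109680874 and Gm22981 at chr12:109682384-109682458 (mm10).
Gm23787: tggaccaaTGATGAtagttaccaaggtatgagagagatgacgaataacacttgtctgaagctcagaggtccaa
Gm22205: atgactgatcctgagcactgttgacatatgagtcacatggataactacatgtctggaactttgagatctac
Gm23736: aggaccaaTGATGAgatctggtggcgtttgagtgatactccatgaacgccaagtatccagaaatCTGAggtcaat
Gm22981: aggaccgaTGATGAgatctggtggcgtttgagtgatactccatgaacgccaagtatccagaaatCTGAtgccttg
Of the 23 snoRNA rows, 68 to 82 bases long, 17 held that box C and 15 that box D, and 11 held both. Gm23736 and Gm22981 were 92% identical, so reads from one could be counted for the other or be lost. No other of the 253 pairs was over 90%, and the median identity was 60.0%.

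The libraries held 13092151 and 18386501 mouse counts in KO and 13512654 and 19405100 in WT. Supt3 itself gave 123 and 140 CPM (counts per 1000000 effective counts of the library) in KO and 148 and 159 CPM in WT. The row covers the whole gene and the labels do not say what was deleted, so it does not check the labels. ES cell markers were present, except that Sox2 was listed at 0 in all 4 libraries. Its row lies inside that of Sox2ot on the same strand, which had 236 and 256 CPM in KO and 354 and 325 CPM in WT. Replicates of a genotype differed by more than counting noise, with a chi-square per degree of freedom of 9.62 in KO and 5.55 in WT.

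Nesting of the same kind was seen in the cluster. Of the 118 rows, 64 had at least 1 count and 54 were at 0 in all libraries. All 40 rows lying inside a longer row of the same strand were at 0, of which 18 lie in Rian, 14 in Mirg and 4 in Meg3. Of the 78 rows not nested in this way, 64 had a count. Across the genome, all 1260 small RNA rows inside a same-strand row with at least 1000 counts were also at 0. Of 309 inside such a row on the opposite strand only, 281 (90.9%) were at 0. The 0 values of nested miRNAs and snoRNAs, such as the 14 snoRNA rows inside Rian or Gm37899, are thus no measure of their transcription. Rows on the plus strand held 31289 counts over the 4 libraries and rows on the minus strand held 210. A small RNA row that could be counted reports nascent RNA passing through the hairpin or snoRNA, and not the mature molecule.

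The 5 long plus-strand RNAs held 96.2% of the plus-strand counts and were all lower in KO by a similar factor. Levels are counts divided by the effective library size after TMM scaling, in CPM. Meg3, a non-coding RNA known as a growth suppressor, had 18.9 and 25.8 CPM in KO and 141 and 125 CPM in WT. Rian, the snoRNA host, had 55.2 and 81.6 CPM in KO and 391.5 and 402 CPM in WT. Mirg, the host of miRNAs at the far end, had 18.0 and 31.9 CPM in KO and 139 and 154 CPM in WT. For each of these RNAs both KO libraries lay far below both WT libraries, and on a log scale the KO libraries differed more from each other than the WT libraries did.

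Between Rian and Mirg lie Gm37899 and B830012L14Rik, rows with no named function. Gm37899 had 12.1 and 17.3 CPM in KO and 68.1 and 76.6 CPM in WT. B830012L14Rik had 4.01 and 7.52 CPM in KO and 32.7 and 34.3 CPM in WT. Their groups were also apart, so the lower level in KO ran without a break over the 5 rows from Meg3 to Mirg. In the edgeR fit the log2 difference of KO over WT was -2.57 ± 0.14 (SE) for Meg3, -2.53 ± 0.17 for Rian, -2.29 ± 0.16 for Gm37899, -2.51 ± 0.23 for B830012L14Rik and -2.54 ± 0.21 for Mirg. Summed, the 5 RNAs had 108 and 164 CPM in KO and 772 and 793 CPM in WT, a 5.87-fold lower level in KO.

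**Figure D1:**
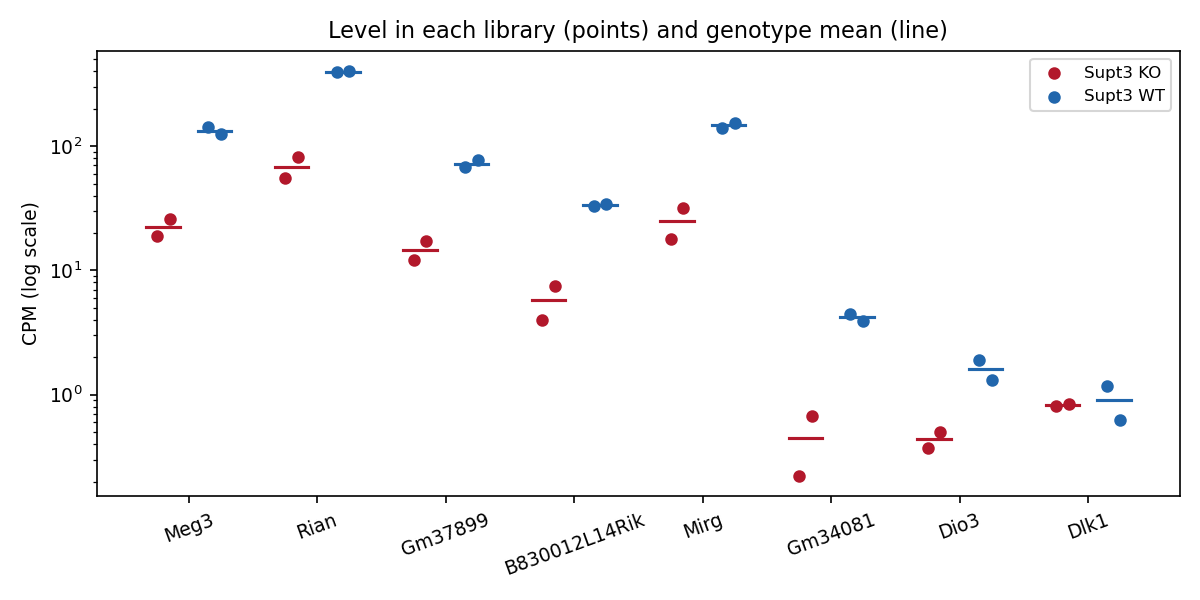
CPM on a log axis for 8 rows of the cluster, with 1 point per library and a line at the genotype mean (n = 2 each), KO left of WT. The 5 long RNAs, Gm34081 and Dio3 show KO points below WT points, and the points of Dlk1 overlap.

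A remnant of the long RNAs was measured in KO. From pooled counts the KO level was 17.3% of WT for Meg3 (95% exact binomial interval 15.9 to 18.7%), 17.7% for Rian (16.9 to 18.5%) and 17.5% for Mirg (16.2 to 18.9%). Gm37899 stood at 20.6% (18.6 to 22.7%) and B830012L14Rik at 17.8% (15.2 to 20.8%). Such intervals cover counting error only, are too narrow for the difference between the KO libraries, and rest on reads without molecular identifiers. All plus-strand rows together held 0.0116 and 0.0166% of mouse counts in KO and 0.0810 and 0.0812% in WT.

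Per kb of row span, the 5 RNAs were among the more transcribed rows in WT and near the middle in KO. Meg3 had 0.727 ± 0.157 CPM per kb in KO and 4.34 ± 0.37 CPM per kb in WT (SD, n = 2 each). Gm37899, the highest of the 5 per kb, had 1.68 ± 0.42 in KO and 8.30 ± 0.69 in WT on that scale. Among 16789 tested rows they lay between percentiles 49.0 and 68.0 in KO and between 88.1 and 94.96 in WT, where the median row had 0.763 CPM per kb in KO and 0.760 CPM per kb in WT. No source says whether introns were counted.

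**Figure D2:**
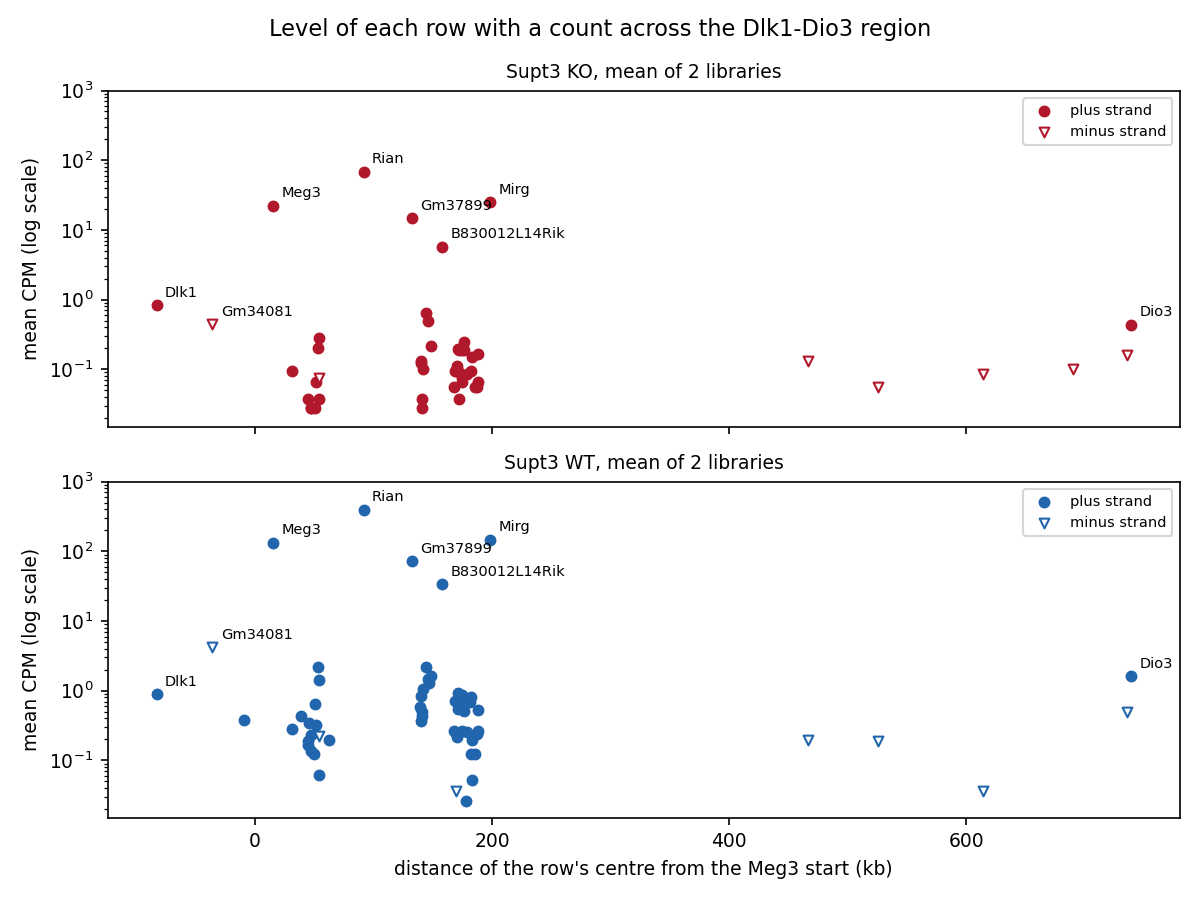
Mean CPM of each row with a count, on a log axis, against the distance of its centre from the Meg3 start in kb, for KO above and WT below (mean of 2 libraries each). Filled circles are plus-strand rows and open triangles minus-strand rows. The 5 long RNAs stand above the small RNA rows in both genotypes, and at a lower level in KO.

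The make-up of the remnant could be set against WT inside each library, a measure that does not use the difference in level. Rian took 51.0 and 49.7% of the counts of the 5 RNAs in KO and 50.7 and 50.7% in WT. Meg3 took 17.5 and 15.7% in KO and 18.3 and 15.8% in WT, and Mirg took 16.6 and 19.5% in KO and 18.0 and 19.5% in WT. These shares overlapped between the genotypes. Gm37899 was the exception, with 11.2 and 10.5% in KO and 8.82 and 9.66% in WT, so that both KO libraries were above both WT libraries, with 2 libraries a genotype.

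The ratio of the far end to the near end of the run differed between the libraries of a genotype and overlapped between genotypes. Mirg had 0.949 and 1.24 counts per Meg3 count in KO and 0.981 and 1.23 in WT. In each genotype the second library, which had more mouse counts, gave the higher ratio. Rian had 2.92 and 3.17 counts per Meg3 count in KO and 2.77 and 3.21 in WT, again higher in the second library of each genotype.

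The KO libraries did not hold the same amount of the remnant. The log2 ratio of KO replicate 2 over KO replicate 1 was 0.45 for Meg3, 0.56 for Rian, 0.52 for Gm37899, 0.91 for B830012L14Rik and 0.83 for Mirg. Against 11000 genes with at least 5 CPM in both KO libraries these values fell at percentiles 97.2 to 99.8. B830012L14Rik, with 4.01 CPM in KO replicate 1, was itself under that minimum. The genes were not matched for level, so counting noise in the low KO rows may make these percentiles more extreme. The WT libraries gave log2 ratios between -0.18 and 0.17 for the same RNAs, at percentiles 16.8 to 86.6 among 11061 genes. This comparison of libraries of one genotype does not use the KO and WT difference that picked the cluster, but it rests on 1 pair of libraries in each genotype.

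**Figure D3:**
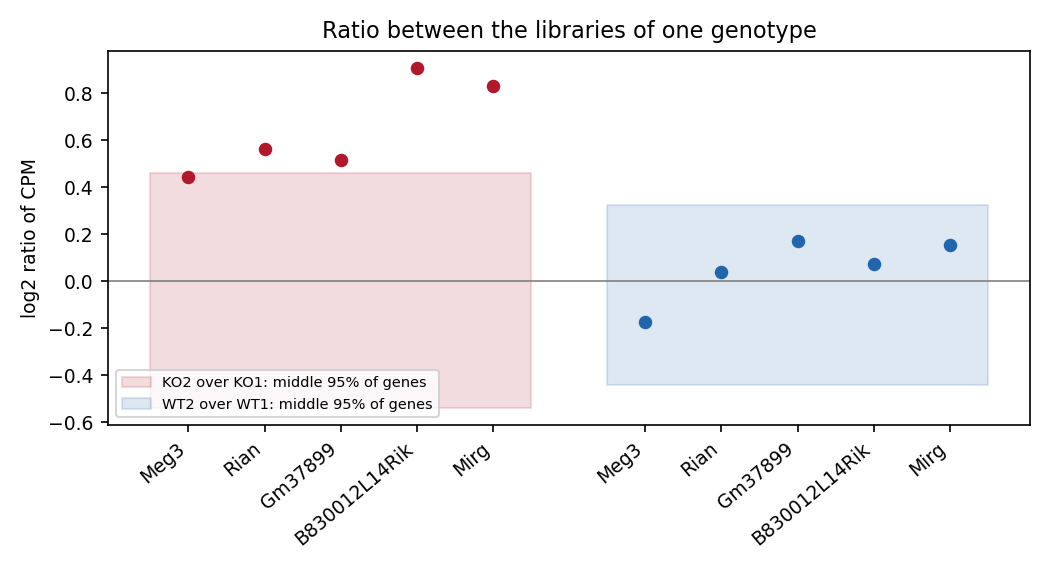
Log2 ratio of CPM between the 2 libraries of a genotype for the 5 long RNAs (points), KO left and WT right. The shading holds the middle 95% of genes with at least 5 CPM in both libraries. The KO points lie between 0.45 and 0.91, with Meg3 just inside the shaded range and the other KO points above it, and the WT points lie inside theirs.

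The primary miRNA rows followed the long RNAs. Of 59 plus-strand miRNA rows 20 are nested and at 0, and 38 of the other 39 had a count. Together they had 36 and 64 counts in KO and 234 and 346 counts in WT, which put KO at 18.0% of WT (14.4 to 22.4%). Per row the counts were low, with a median of 12 over the 4 libraries and a highest total of 76. Of the 38 rows, 27 had both KO libraries below both WT libraries, 11 overlapped, and 8 had no count in either KO library. Both KO libraries were below both WT libraries in 26.0% of all tested genes. That share is for genes that passed the low-count filter, as only 8 of the 38 rows did.

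Between Meg3 and Rian, 13 miRNA rows had 14 and 10 counts in KO and 90 and 124 counts in WT, or 11.7% of WT (7.36 to 17.9%). Among them, 6 rows lie opposite Rtl1, whose mRNA they are known to cut because they are its perfect antisense. Those 6 had 12 and 6 counts in KO and 70 and 84 counts in WT. Mir434, the most counted miRNA row, had 4 and 2 counts in KO and 31 and 39 counts in WT. Mir432 next to it had 6 and 2 counts in KO and 20 and 27 counts in WT, and Mir127, another antisense miRNA of Rtl1, had 1 and 1 in KO and 6 and 4 in WT. The groups of each of these rows were apart.

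Between B830012L14Rik and Mirg, 25 miRNA rows had 21 and 54 counts in KO and 137 and 215 counts in WT, or 22.3% of WT (17.1 to 28.7%). Here KO replicate 2 had 3.03 CPM and KO replicate 1 had 1.56 CPM, while in the rows between Meg3 and Rian KO replicate 2 had 0.561 CPM and KO replicate 1 had 1.04 CPM. The order of the KO libraries was thus opposite in the 2 groups of miRNA rows, at low counts.
Mir376c had no count in either KO library and 9 and 14 counts in WT. Against a floor of 3 counts per library it was at least 3.56-fold lower in KO. Its seed mate Mir376b had no count in KO and 2 and 2 counts in WT. Mir679 had 2 and 4 counts in KO and 14 and 14 counts in WT, and Mir654 had 1 and 2 counts in KO and 13 and 13 counts in WT. Of the other seed pair printed above, Mir1193 had 1 and 1 counts in KO and 9 and 16 counts in WT, and Mir379 had 0 and 2 counts in KO and 3 and 6 counts in WT.

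The 9 snoRNA rows that could be counted lie together between Gm37899 and B830012L14Rik. Box C/D snoRNAs guide methylation of other RNAs, and those of this cluster have no known ribosomal target. Together they had 15 and 42 counts in KO and 129 and 199 counts in WT, or 18.2% of WT (13.5 to 24.2%). In all 9 rows both KO libraries were below both WT libraries, where 26.0% of all tested genes were. Of the 9 rows 6 passed the low-count filter, for which the 26.0% holds, and 2 had no count in KO. Gm23736, which did not pass, had 2 and 2 counts in KO and 8 and 3 in WT, or 38.1% of WT (8.84 to 128%). Its groups were barely apart, at 0.148 CPM in KO replicate 1 and 0.157 CPM in WT replicate 2. Gm22981, which did not pass either, had 0 and 1 counts in KO and 8 and 8 in WT.

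The snoRNA rows spread widely in their ratio of KO to WT, at low counts. Gm22205 had 0 and 0 counts in KO and 17 and 25 counts in WT, at least 6.53-fold lower in KO against 3 counts per library. AF357428 had none in KO and 6 and 14 counts in WT. Gm23787 had 3 and 19 counts in KO and 25 and 49 counts in WT, or 31.1% of WT (18.4 to 50.7%). That value depends on the KO library, since the fitted log2 difference of Gm23787 was -1.06 without KO replicate 1 and -3.28 without KO replicate 2, beside -1.68 with both.

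Whether the snoRNA rows differ from each other in that ratio was not tested. Gm25854, between Gm23787 and Gm22205, had 5 and 11 counts in KO and 17 and 33 counts in WT, or 33.5% of WT (17.8 to 59.8%). Gm25224 on the far side had 2 and 5 counts in KO and 23 and 30 counts in WT, or 13.8% of WT (5.30 to 30.5%). Gm25856 had 2 and 1 counts in KO and 15 and 19 in WT, and AF357341 had 1 and 3 in KO and 10 and 18 in WT.

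**Figure D4:**
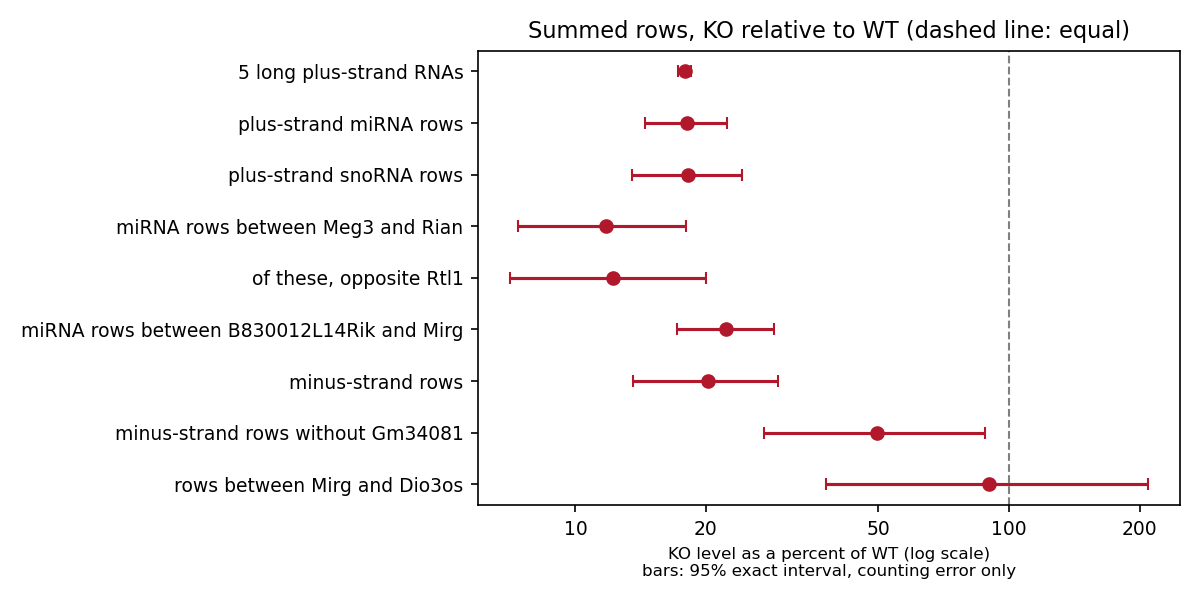
KO level as a percent of WT on a log axis for summed rows of the cluster, from pooled counts of 2 libraries each, with 95% exact intervals that cover counting error only. The 5 long RNAs, the miRNA rows and the snoRNA rows lie near 18%, and the rows between Mirg and Dio3os lie near the line of equal levels.

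The protein-coding genes of the cluster had low counts in both genotypes. Dlk1 had 11 and 15 counts in KO and 16 and 12 counts in WT, which is 0.829 ± 0.018 CPM in KO and 0.900 ± 0.386 CPM in WT (SD, n = 2 each). The groups overlapped, and KO stood at 97.2% of WT with an interval of 54.8 to 172%, so a difference within that range was not detectable at this depth. Set against Meg3, Dlk1 had 4.31 and 3.27 counts per 100 Meg3 counts in KO and 0.829 and 0.501 in WT. That ratio restates the lower Meg3 level in KO, by which the cluster was picked, and shows no change of Dlk1.

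Rtl1 had 2 and 0 counts in KO and 4 and 3 counts in WT, under or around the floor of 3 counts, and no ratio can be read from them. Dio3 at the far end had 5 and 9 counts in KO and 26 and 25 counts in WT, or 28.7% of WT (14.7 to 52.7%). Its groups were apart, with a log2 difference of -1.81 ± 0.43. Dio3os, which starts from the other strand beside it, had 2 and 3 counts in KO and 3 and 15 counts in WT. The levels of Dlk1 overlapped between genotypes and those of Dio3 did not; the difference between the genes was not tested.

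Upstream of Meg3 2 more rows were lower in KO. Gm34081 on the minus strand, a long non-coding row between Dlk1 and Meg3, had 3 and 12 counts in KO and 61 and 75 counts in WT. That is 0.448 ± 0.319 CPM in KO and 4.20 ± 0.39 CPM in WT (SD, n = 2 each). The log2 difference was -3.12 ± 0.41, and it was -2.62 without KO replicate 1 and -4.18 without KO replicate 2. Gm34081 is annotated as read away from Meg3, and its row does not overlap the plus-strand run, though the strand setting of the counts is not given. Of its RefSeq promoter windows the nearest to Meg3 is at chr12:109540100-109540399, just before the Meg3 promoter window, and others lie farther off. Whether the levels of Gm34081 and Meg3 are linked was not tested. Gm27528, a plus-strand row whose centre lies 9.10 kb before the Meg3 start, had 0 and 0 counts in KO and 4 and 9 counts in WT, at least 1.95-fold lower in KO against 3 counts per library.

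Minus-strand rows other than Gm34081 had 8 and 11 counts in KO and 13 and 27 counts in WT. The stretch between Mirg and Dio3os was close to silent. Its 11 rows had 4 and 8 counts in KO and 5 and 9 counts in WT, or 89.7% of WT with an interval of 37.9 to 209%. Gm40576, with 2 and 1 counts in KO and 0 and 0 in WT, was the 1 row of the cluster whose KO libraries were both above both WT libraries.

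Counts of calls are given for completeness, since the rule for the cluster used this contrast. Of the 118 rows 22 passed the low-count filter, 21 on the plus strand and Gm34081, among them 8 miRNA and 6 snoRNA rows. Rows that passed only through their WT counts had to differ. With an adjusted p under 0.05 in edgeR taken as a call, 17 of the 22 were lower in KO, where 4.02% of all tested genes were. The test called 0 rows higher, also at an unadjusted p under 0.05 and by DESeq2 and limma voom, where 4.05% of all tested genes were called higher by edgeR. The rows not called were Dlk1, Gm23787, Gm25854, Mir1197 and Mir666. With the S. pombe spike-in as library size, 6 of the 22 were called lower, where 0.0953% of all tested genes were. These were Gm34081, Mir434, Mir376c, Gm22205, Gm25224 and Gm25856.

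Both KO libraries were below both WT libraries in 21 of the 22, where 26.0% of all tested genes were. Over all 118 rows this held for 48, while 15 with a count overlapped. Of the 118 rows 96 did not pass the filter, and no such share was taken over unfiltered genes, so the 48 cannot be set against 26.0%. Some of the 48 rest on very few counts, such as Mir376b with 0 and 0 in KO and 2 and 2 in WT. The median log2 difference of the rows that passed was -2.54, or -2.52 with Gm22205 and Mir376c at their bounds, beside 0.01 over all tested genes. With spike-in scaling the median of all tested genes was -0.23, and none of the 5 long RNAs was called, in a fit whose biological coefficient of variation was 0.363 against 0.0952 with TMM. Their log2 differences in that fit were -2.73 for Meg3, -2.71 for Rian, -2.49 for Gm37899, -2.68 for B830012L14Rik and -2.71 for Mirg. Mouse counts per S. pombe count were 2.71 and 4.86 in KO and 3.25 and 5.60 in WT, so the replicates of a genotype disagreed on that scale.

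Rows on either side of the cluster were not called with the filter in place. The last row before it was at 0, and the first row after it, Gm6988, had 3 and 1 counts in KO and 5 and 1 counts in WT. Begain, the nearest tested gene before the cluster, had 65 and 89 counts in KO and 73 and 69 counts in WT (log2 0.15 ± 0.25, adjusted p = 0.773, edgeR). Ppp2r5c, the nearest after it, had 3157 and 4296 counts in KO and 3322 and 4888 counts in WT (-0.07 ± 0.09, adjusted p = 0.719, edgeR). Within 1 Mb, 8 tested rows before the cluster had a median log2 difference of 0.08 and 17 after it had one of -0.08. In edgeR 0 of these 25 were called, with 1 before and 2 after at an unadjusted p under 0.05, and DESeq2 and limma voom called 0 as well. Without the low-count filter 1 of them was called, 1700001K19Rik, which had 10 and 22 counts in KO and 35 and 41 counts in WT.

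**Figure D5:**
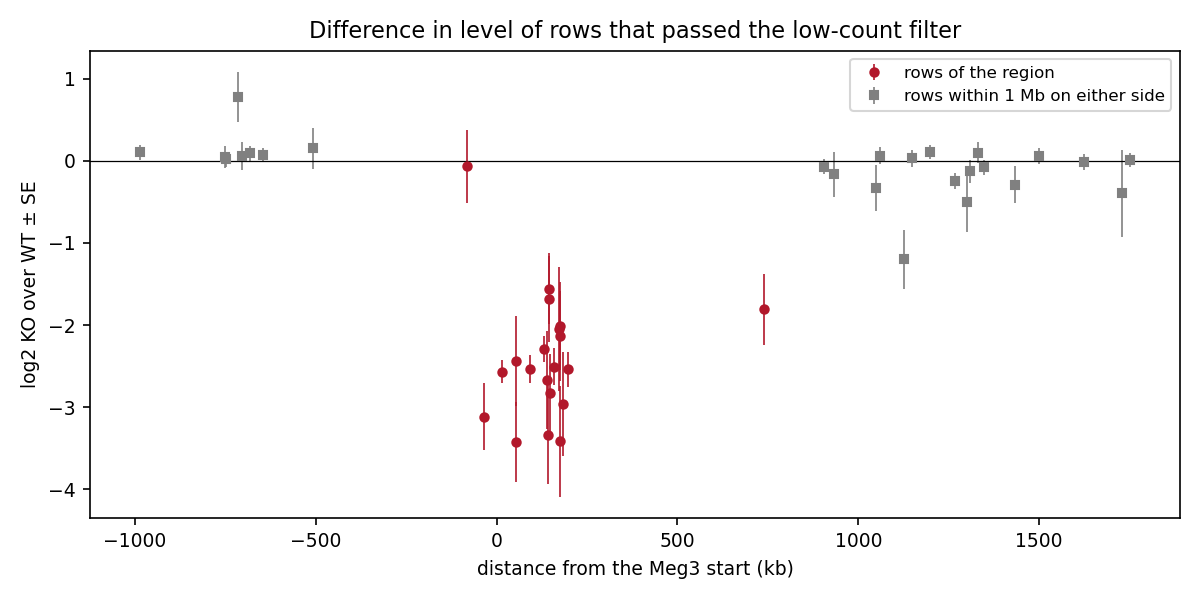
Log2 difference of KO over WT (± SE) against distance from the Meg3 start in kb, for 20 rows of the cluster and 25 rows within 1 Mb on either side that passed the low-count filter. Gm22205 and Mir376c, with no count in KO, are not drawn. The cluster rows lie between -3.42 and -0.06 and the rows on either side between -1.20 and 0.78.

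Genes that set or keep genomic imprints were looked up beside the cluster. Of 21 such genes tested, 1 fell and 2 rose in edgeR, beside 4.02% lower and 4.05% higher over all genes, and their median log2 difference was -0.10. Dnmt3a, a de novo DNA methyltransferase, had 64.0 and 65.6 CPM in KO and 106 and 96.0 CPM in WT (-0.64 ± 0.09, adjusted p = 0.00545, edgeR). Tet3, a 5-methylcytosine oxidase, rose (0.59 ± 0.10, adjusted p = 0.0098, edgeR), as did Aff3, a factor known in mouse ES cells to bind this cluster's control region (0.48 ± 0.10, adjusted p = 0.0204, edgeR). Zfp57, which keeps methylation at imprints, had 114 and 156 CPM in KO and 161 and 177 CPM in WT (-0.32 ± 0.14, adjusted p = 0.223, edgeR). Dppa3, known in mouse reprogramming to protect this cluster's control region from methylation, was below 1 CPM in all libraries (-1.28 ± 0.45, adjusted p = 0.126, edgeR).

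Markers of some other cell states differed between the genotypes, most of those of primitive endoderm and a part of those of trophoblast. Of 12 primitive endoderm markers tested 9 rose in edgeR, where 4.05% of all tested genes did. These were Gata4, Gata6, Sox17, Pdgfra, Dab2, Lama1, Lamb1, Col4a1 and Col4a2. The summed level of the 12 was 1257 and 1686 CPM in KO and 639 and 736 CPM in WT. Of 9 trophoblast markers tested 5 rose, Krt7, Krt8, Krt18, Gata3 and Cdx2, the last with 20 and 16 counts in KO and 4 and 4 in WT. Not called were Eomes (0.15 ± 0.26) and Tfap2c (-0.43 ± 0.15), among others. The trophoblast sums were 103 and 120 CPM in KO and 78.1 and 69.6 CPM in WT. Of 9 fibroblast markers tested, for feeder cells, 1 rose (Thbs1), with sums of 81.1 and 79.1 CPM in KO and 52.4 and 39.7 CPM in WT. Without Thbs1 the fibroblast sums were 24.6 and 20.3 CPM in KO and 22.1 and 21.5 CPM in WT. Of 9 ES cell markers tested 2 were called lower, Nanog (-0.53 ± 0.13) and Fgf4 (-0.71 ± 0.10), where 4.02% of all tested genes were. Esrrb (-0.79 ± 0.22) and Zfp42 (-0.62 ± 0.17) were not called, with a wider spread. In all, 7 of the 9 log2 differences were negative and 2 positive. The ES cell sums were 1512 and 1753 CPM in KO and 2153 and 2178 CPM in WT. KO replicate 2, with more of the cluster's RNAs, also had the higher primitive endoderm, trophoblast and ES cell sums of the KO libraries. WT replicate 2 likewise had the higher primitive endoderm and ES cell sums of its pair, but the lower trophoblast sum. Single markers went both ways between the KO libraries. Tfap2c had 28.3 and 39.9 CPM and Gata3 7.79 and 6.90 CPM, while Esrrb had 242 and 427 CPM and Pou5f1 154 and 135 CPM. No marker of these lists but Sox2 was at 0 in all libraries, and the part of these cell states in the cluster's level was not tested.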

How the data were processed

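Per the submitters' processing notes, the tools were STAR 2.5.3, cutadapt 1.10, HTSeq 0.6.1p1, bcl2fastq 2.20.0.422 and DESeq2 1.16.1, with mm10 as build. No source used here gives the strand setting, the feature counted or the annotation release. The authors deposited raw counts per gene for mouse (54146 rows) and S. pombe (7259 rows), and a comparison table that repeats the mouse counts and adds normalized signal values, a log2 fold change and p-values. The deposited signal values are counts over a library size factor and, like the deposited log2 fold changes and p-values, they were not used for any result. Coordinates come from that table.

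edgeR 4.0.16 (R 4.3.3) fitted all 4 libraries with TMM factors, after filterByExpr at a minimum count of 10, with Benjamini-Hochberg adjustment over all 16789 genes tested. DESeq2 1.42.0, limma voom 3.58.1, a spike-in scaled fit, no filter and leaving out each library were the alternatives. SE is the log2 difference divided by the square root of the test's F. The script was tested on simulated counts. Exact (Clopper-Pearson) intervals cover counting error only, and a KO sum of 0 is set against a floor of 3 counts per library. Figures used matplotlib 3.10.9.

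Named are Dlk1, Meg3, Rian, Mirg, Rtl1, Dio3, the rows that passed the filter, the 10 small RNA rows with the highest total, called genes of the lists and the nearest tested rows outside. The other small RNA rows, Gm27528, Gm40576, Dio3os, 1700001K19Rik, Zfp57, Dppa3 and the cell state markers not called were named after their values were seen. The cluster, its rows and the lists were chosen with earlier results of these data known. Replicates carry no number in the labels, so none were paired.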

Additional observations from a re-analysis of the deposited data

How the results depend on the processing

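The count of 17 cluster rows lower in KO was 6 with the spike-in as library size, 8 with DESeq2, 16 with limma voom and 28 with no low-count filter. DESeq2 gave an adjusted p for 10 of the 17, and without the filter 64 rows were tested. Leaving out 1 library gave 12 to 18, in fits where the lone library of a genotype is assumed to vary like the pair of the other, so these counts say little of stability. The count of rows higher stayed at 0 in each of these. The median log2 difference of the named rows was -2.54 and ranged between -2.28 and -2.85 over the alternatives. The summed plus-strand level was -2.55. It was -2.78 with spike-in scaling, -2.54 without TMM, -2.39 without Meg3, Rian and Mirg, -2.83 within the pair of libraries with fewer counts and -2.27 within the pair with more, and -2.25 to -2.85 with 1 library left out. Of 162 values of single rows under an alternative, 127 kept direction and call, 25 lost and 8 gained the call, and 2 changed sign, both for Dlk1 (0.0081 with limma voom and 0.39 without WT replicate 1, where it was -0.49 without WT replicate 2). The cause was not tested. No paired analysis was possible because the labels number no replicates, and the pairs above go by depth alone. Depth limits the small RNA rows, Rtl1, Dlk1 and Dio3, and 2 libraries a genotype limit every comparison.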
